A study of Mus musculus with 10 samples.

Results

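The nuclear genes for the subunits of respiratory complexes II, III, IV and V were compared in livers of transgenic mice given metformin with carbon tetrachloride (CCl4) and of mice given CCl4 alone. A gene was a member where the RefSeq symbol matched to its probe accession was Sdha to Sdhd or began with Uqcr, Cox4 to Cox8 or Atp5. By this rule 47 of the 21613 named genes on the array were members, 4 of complex II, 8 of complex III, 18 of complex IV and 17 of complex V, on 70 probes. The rule used symbols and no measured value. It takes in Cox7a2l, a factor that joins complexes III and IV into supercomplexes, and leaves out Cyc1 and Ndufa4, which are subunits with other names, and the subunits encoded in mitochondrial DNA, which are not analysed here.

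Complex II, succinate dehydrogenase, passes electrons from succinate to ubiquinone and is also an enzyme of the citric acid cycle. Complex III moves them on to cytochrome c, complex IV reduces oxygen with them, and complex V, the ATP synthase, makes ATP with the proton gradient that complexes I, III and IV build up. Hepatocytes are rich in mitochondria, and metformin is best known among respiratory enzymes as an inhibitor of complex I.

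The livers came from 10 male TG221 mice, which overexpress miR-221, on a B6D2F2 background, and RNA of each was measured on its own Agilent 1-colour array. In the metformin plus CCl4 group, 6 mice took metformin at 300 mg/kg by mouth every day, starting 3 weeks after the first CCl4 dose, and in the CCl4 group 4 mice had no metformin. All 10 mice carried the transgene, were 4 to 6 weeks old at the start, received CCl4 by gavage 3 times a week over 14 weeks (20% v/v, with olive oil as the carrier), and were sampled at 24 weeks. The labels name the samples both liver and hepatocellular carcinoma and do not give the promoter of the transgene, and no mice without the transgene or without CCl4 are analysed here. The 6 metformin plus CCl4 arrays lay on one slide and the 4 CCl4 arrays on another, each slide with its own scan, so slide and treatment cannot be told apart. Metformin plus CCl4 mice 1 and 2 shared the first row of slide positions with all 4 CCl4 mice, and metformin plus CCl4 mice 3 to 6 were in the second row. The 75th percentile of spot intensity ran from 237.4 to 362.9 over the metformin plus CCl4 arrays and from 238 to 337.7 over the CCl4 arrays, and the number of arrays limits the precision. It was 362.9 and 350.8 in metformin plus CCl4 mice 1 and 2, and 276, 260.7, 269.7 and 237.4 in mice 3 to 6. A level is given below as log2 of the processed intensity minus the array's 75th percentile, and a change is the difference of group means on that scale, metformin plus CCl4 minus CCl4.

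Subunit genes of complexes III, IV and V were more often higher than lower in the metformin plus CCl4 livers, with changes of at most 0.54 on the log2 scale. Of the 45 members bright enough to test, 19 rose and 2 fell at an adjusted p below 0.05 (limma), and 24 were not called. That is 42.2% of the members higher, against 27.7% of all named genes tested, and 2 members lower, against a background of 19.7%. With slide row as a covariate 6 of the 45 members were called higher, beside 19.9% of named genes. Within slide row 1 the count was 3, beside 16.3%, and with mouse numbers 1 to 4 as a replicate block it was 5, beside 18%. In each of these 3 settings the members' share called higher was below that of named genes. Slide row 1 holds 2 of the 6 metformin plus CCl4 mice, and the block leaves out mice 5 and 6. The metformin plus CCl4 mice of slide row 2 alone were set against the 4 CCl4 mice, all in row 1, after seeing the data. There the count was 27, beside 26.2%. With another background correction (normexp) it was 25, beside 26.6%. After scaling to the arrays' spike-in controls in place of the 75th percentile, 0 members were called higher and 10 lower, with 4.41% of all named genes higher and 44.2% lower, since that scaling moved the median of all features by -0.52. In 19 members all 6 metformin plus CCl4 mice lay above all 4 CCl4 mice, a separation seen in 21.8% of named genes, and in 2 members they lay below, against 14.1%. The median change of the members was 0.23, and that of all 22184 tested features 0.10. Relative to all features the members' median was 0.13, which scaling to the median or to spike-ins leaves as it is by construction, and 0.04 after quantile normalization.

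The testis forms Cox7b2 and Cox8c were not well above background on any array and have no test. In bulk liver RNA, fewer cells of a type and less RNA per cell cannot be told apart. The median change was 0.10 for complex II, 0.24 for complex III, 0.24 for complex IV and 0.23 for complex V. In complex II 1 of 4 tested members rose, in complex III 3 of 8 rose and 1 fell, in complex IV 6 of 16 rose, and in complex V 9 of 17 rose and 1 fell. The shares higher were 25% (II), 37.5% (III), 37.5% (IV) and 52.9% (V), beside 27.7% of all named genes. Those of complexes II, III and IV are near the background and are not read as a result about the complex. No test of the difference between complexes was run, because the members were chosen with results of these data known.

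**Figure D1:**
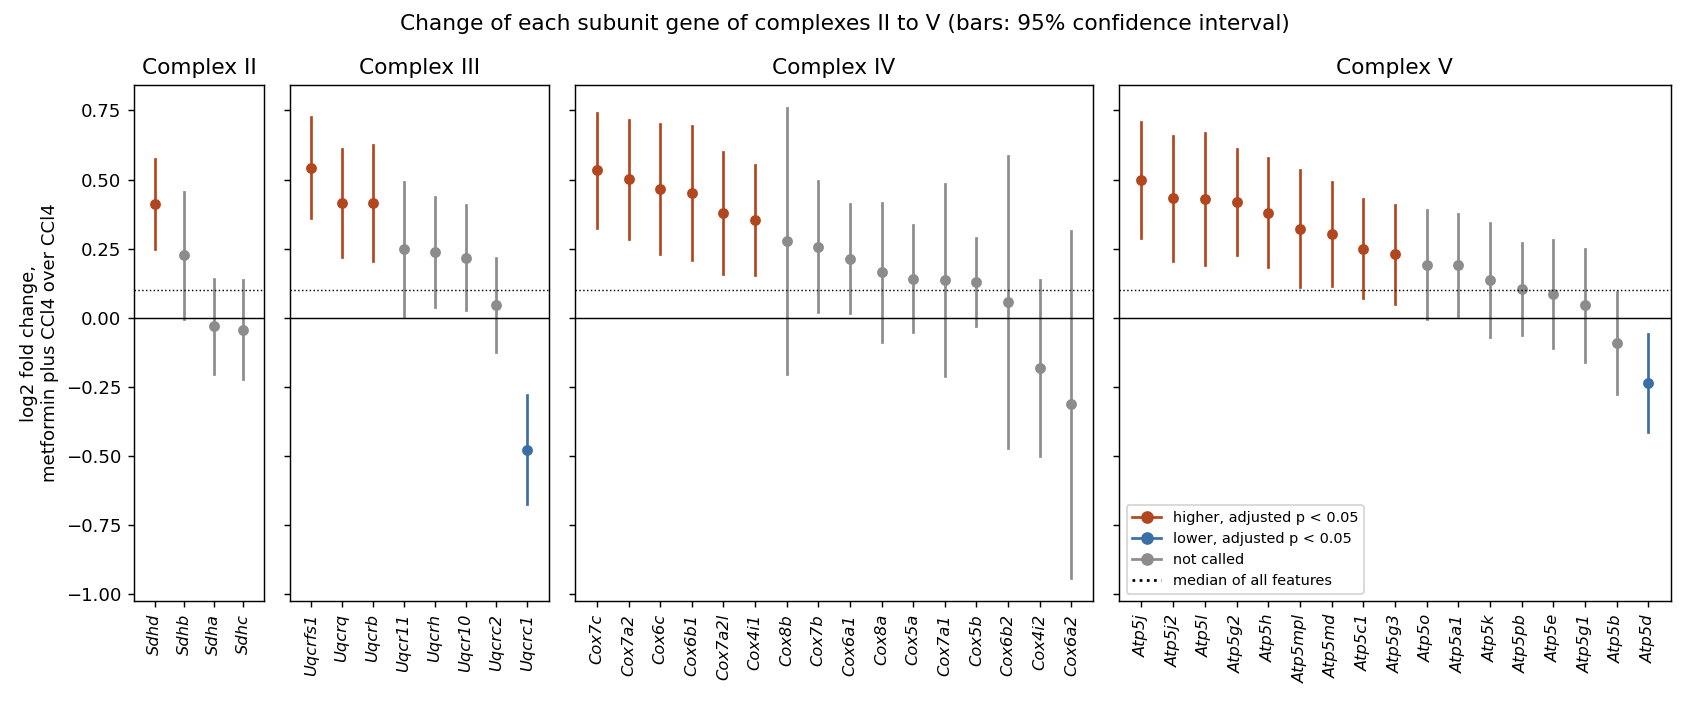
Change of each of the 45 tested subunit genes (log2 fold change, metformin plus CCl4 over CCl4; points are estimates, bars 95% confidence intervals), by complex; the dotted line marks the median of all features, 0.10. The 19 genes called higher reach 0.54 with Uqcrfs1 and the 2 called lower are Uqcrc1 and Atp5d; after scaling to spike-ins 0 genes were called higher and 10 lower.

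Promoter windows of the members were read from RefSeq (GRCm38.p6) and searched on both strands for motifs of factors that act on respiratory genes, because 19 members rose in the same comparison. A window ran from 250 bases before to 50 bases after the gene's start, and 36 of the 47 genes had 39 windows. The NRF1 core GCATGCGC was in 17.9% of the members' windows and 2.71% of all windows, in the genes Atp5g2, Atp5k, Atp5l, Cox6a1, Sdhb, Uqcr11 and Uqcrc1. Of these 7 genes 2 were called higher and 1 lower, and of the 28 tested genes without it, 12 were called higher and 1 lower. The GABP motif CCGGAAG was in 33.3% of the members' windows and 8.86% of all. Of the 13 genes with it, 6 were called higher and 0 lower, and of the 22 tested genes without it, 8 were called higher and 2 lower. The ERR motif TCAAGGTCA was in the windows of Sdhd and Atp5g3, which is 5.13% of them against 0.423% of all, and the Sp1 motif GGGCGGG in 30.8% against 25.6%. The YY1 core AAGATGGCG was in the windows of Atp5j and Atp5j2, 5.13% of the members' windows against 1.4% of all. No motif overlapped another in these windows, apart from the NRF1 core, which overlaps itself when both strands match. Windows of members had a median GC content of 56.3%, against 52.7% over all windows. Over windows of protein-coding genes alone the shares were 3.52% for NRF1, 11.6% for GABP, 0.334% for ERR, 1.83% for YY1 and 33.9% for Sp1. The NRF1 and YY1 cores were chosen after a search with longer forms of both motifs had been seen, and those forms matched fewer of the members' windows, with no YY1 match among them. A match is a run of letters in the window, and binding was not measured.

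The windows printed below have motif letters in capitals, and in Uqcrc1, Cox6a1 and Atp5g2 the NRF1 run holds the core on both strands. They cover 5 genes that rose, fell or were not called, with matches in all but Uqcrfs1. They are Sdhd (chr9:50603800-50604099, minus strand), Uqcrfs1 (chr13:30545267-30545566, minus), Uqcrc1 (chr9:108936398-108936697, plus), Cox6a1 (chr5:115348909-115349208, minus) and Atp5g2 (chr15:102670998-102671297, minus), each read 5′ to 3′ on the gene's strand. From the 5′ end, Sdhd has GABP, Sp1 and ERR in capitals, Uqcrfs1 has none, Uqcrc1 has NRF1, Cox6a1 has NRF1, Sp1 and GABP, and Atp5g2 has NRF1 and Sp1.
Sdhd: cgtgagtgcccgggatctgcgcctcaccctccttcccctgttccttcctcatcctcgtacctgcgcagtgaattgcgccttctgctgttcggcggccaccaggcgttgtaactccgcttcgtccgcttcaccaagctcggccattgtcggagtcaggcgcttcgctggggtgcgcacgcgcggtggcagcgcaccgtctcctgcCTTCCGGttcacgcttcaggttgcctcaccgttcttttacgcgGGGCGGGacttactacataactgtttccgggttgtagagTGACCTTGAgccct
Uqcrfs1: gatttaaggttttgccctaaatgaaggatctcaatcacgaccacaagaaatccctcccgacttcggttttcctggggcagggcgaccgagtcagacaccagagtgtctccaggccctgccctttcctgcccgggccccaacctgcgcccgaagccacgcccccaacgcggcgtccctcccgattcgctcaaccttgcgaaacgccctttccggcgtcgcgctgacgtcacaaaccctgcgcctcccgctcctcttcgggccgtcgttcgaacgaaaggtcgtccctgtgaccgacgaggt
Uqcrc1: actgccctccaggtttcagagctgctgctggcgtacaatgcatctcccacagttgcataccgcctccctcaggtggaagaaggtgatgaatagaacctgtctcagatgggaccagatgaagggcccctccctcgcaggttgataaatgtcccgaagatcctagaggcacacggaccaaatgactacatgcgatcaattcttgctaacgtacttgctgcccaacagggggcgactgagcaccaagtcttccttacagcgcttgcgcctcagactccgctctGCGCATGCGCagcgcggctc
Cox6a1: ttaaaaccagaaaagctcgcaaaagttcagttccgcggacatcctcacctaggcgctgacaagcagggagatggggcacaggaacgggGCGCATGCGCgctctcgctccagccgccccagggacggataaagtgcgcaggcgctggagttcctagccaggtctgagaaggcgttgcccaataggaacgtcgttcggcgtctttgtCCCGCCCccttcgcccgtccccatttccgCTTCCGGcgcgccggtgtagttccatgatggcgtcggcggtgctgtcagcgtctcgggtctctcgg
Atp5g2: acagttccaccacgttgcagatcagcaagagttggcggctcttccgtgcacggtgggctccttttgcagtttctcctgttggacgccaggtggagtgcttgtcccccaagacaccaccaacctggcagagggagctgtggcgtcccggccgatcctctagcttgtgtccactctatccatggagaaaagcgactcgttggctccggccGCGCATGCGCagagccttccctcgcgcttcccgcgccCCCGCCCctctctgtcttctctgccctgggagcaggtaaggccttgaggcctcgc

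In complex II, Sdhd, a membrane anchor of succinate dehydrogenase, was the 1 of 4 members that was called. Its levels in the 6 metformin plus CCl4 mice had a lowest value of 6.58, a median of 6.63 and a highest of 6.75, against 6.33, 6.22, 6.14 and 6.24 in the 4 CCl4 mice. Every metformin plus CCl4 mouse was above every CCl4 mouse. Sdhd rose by 0.41 ± 0.07 (SE), a 1.33-fold change (adjusted p = 0.00132, limma). Its window, printed above, is the one that holds the ERR, GABP and Sp1 letters together. Sdhc, the other anchor, changed by -0.043 (95% interval -0.22 to 0.14, adjusted p = 0.692), and its second probe gave 0.11, so its probes disagreed in sign. The catalytic head was not called in either gene. Sdha, the flavoprotein that oxidizes succinate, was at -0.031 (interval -0.20 to 0.14) and Sdhb, the iron-sulfur protein, at 0.23 (interval -0.0036 to 0.45, adjusted p = 0.0988). The second probe of Sdhb gave 0.12. Without metformin plus CCl4 mouse 1, Sdhb was called at 0.29 (adjusted p = 0.0256). After scaling to spike-ins Sdhd was at -0.10 (adjusted p = 0.617), and Sdha and Sdhc were called lower at -0.55 and -0.56.

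In complex III the Rieske protein and 2 of 5 small subunits rose, none of which stayed called under spike-in scaling, and 1 of 2 core proteins fell. Of all named genes 27.7% were called higher and 19.7% lower. Uqcrfs1 encodes the Rieske iron-sulfur protein, which takes electrons from ubiquinol. It lay at 6.16 (lowest), 6.32 (median) and 6.40 (highest) in metformin plus CCl4 mice, against 5.91, 5.75, 5.72 and 5.70 in CCl4 mice. The groups did not overlap, and the change was 0.54 ± 0.08 (SE), 1.46-fold (adjusted p = 0.000519, limma). Uqcrq, a small subunit of the membrane part, lay at 8.72, 8.91 and 9.05 (lowest, median, highest) in metformin plus CCl4 mice and at 8.51, 8.52, 8.48 and 8.45 in CCl4 mice. The 4 CCl4 mice were within 0.1 of each other and all below the lowest metformin plus CCl4 mouse, and the change was 0.42 ± 0.09 (adjusted p = 0.00357), with 0.65 from its second probe. For Uqcrb, a small subunit next to a ubiquinone site, the lowest, median and highest were 6.58, 6.87 and 7.04 in metformin plus CCl4 mice, against 6.42, 6.41, 6.51 and 6.44 in CCl4 mice. Again the groups did not overlap, with metformin plus CCl4 mouse 1 nearest the CCl4 mice, and the change was 0.41 ± 0.09 (adjusted p = 0.00515).

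Uqcrc1, the first core protein, went the other way and had the lowest change of all 45 members. It lay at 4.49 (lowest), 4.69 (median) and 4.83 (highest) in metformin plus CCl4 mice and at 5.14, 5.26, 5.10 and 5.14 in CCl4 mice. All 6 metformin plus CCl4 mice were below all 4 CCl4 mice. Uqcrc1 fell by 0.48 on the log2 scale (SE 0.09, adjusted p = 0.00171, limma), 1.39-fold lower. It was called lower under all 23 alternatives run, spike-in scaling included, with changes between -0.99 and -0.37. Its partner core protein Uqcrc2 was at 0.047 (interval -0.12 to 0.22, adjusted p = 0.648). The other small subunits were Uqcr11 at 0.25, Uqcrh, the hinge protein that meets cytochrome c1, at 0.24 and Uqcr10 at 0.22, with adjusted p of 0.0881, 0.0512 and 0.059. None of them was called, although all 6 metformin plus CCl4 mice were above the CCl4 mice for Uqcr10. The 3 probes of Uqcr10 gave 0.22 to 0.63, and their average was called at 0.36 (adjusted p = 0.0109). It was also called with normexp, at 0.34 (adjusted p = 0.00458). All 3 were called without metformin plus CCl4 mouse 1, at 0.31, 0.29 and 0.25, so the small subunits counted as higher depend on that mouse. Under spike-in scaling Uqcrq and Uqcrb were each at -0.10, Uqcrfs1 at 0.028 (adjusted p = 0.888), and Uqcrc1 at -0.99.

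**Figure D2:**
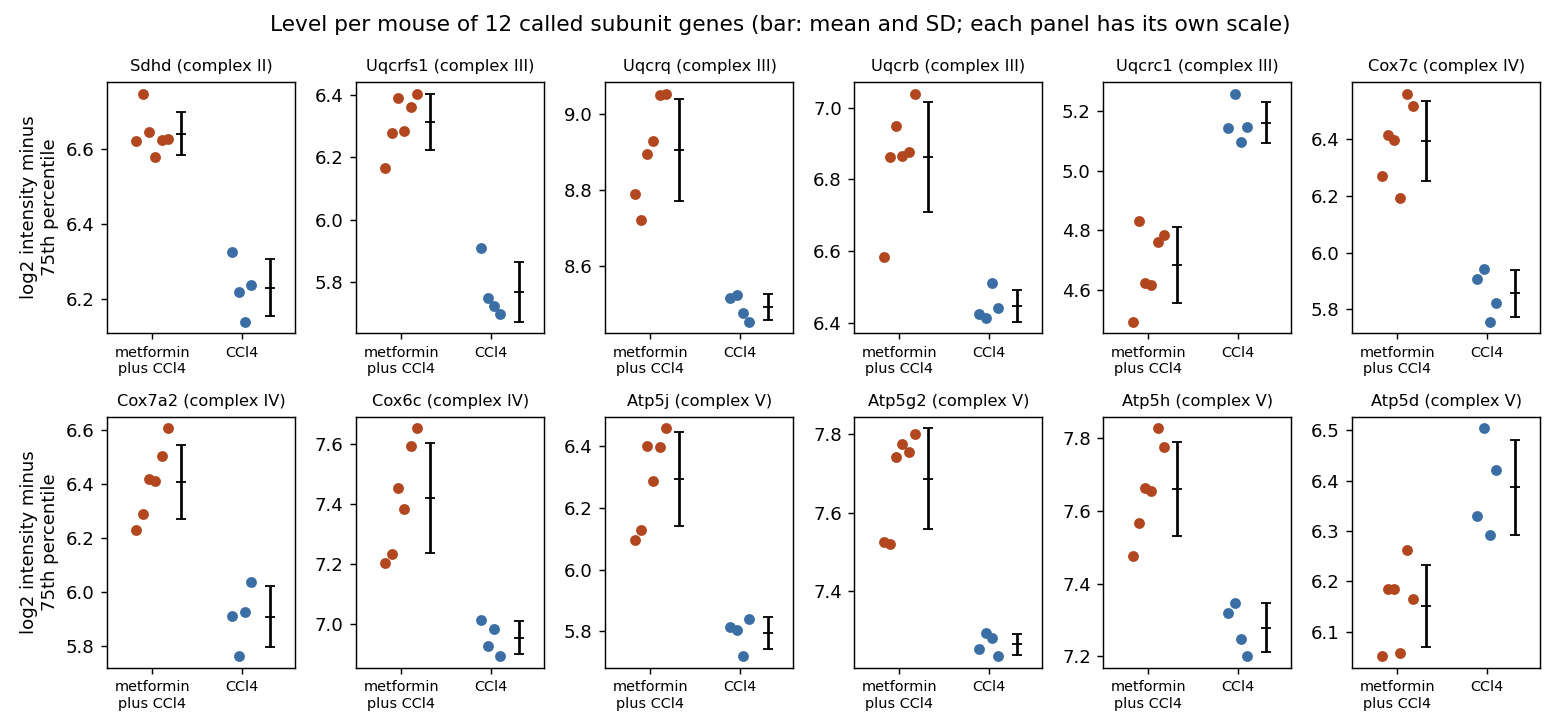
Level of 12 called subunit genes in each mouse (log2 intensity minus the array's 75th percentile; each panel has its own scale; points are mice, bars the group mean and SD, 6 metformin plus CCl4 and 4 CCl4 mice). The groups do not overlap in any panel; Uqcrc1 and Atp5d are lower with metformin and the other 10 higher, of which 8 turn below 0 when arrays are scaled to spike-ins.

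In complex IV 5 of 10 ubiquitous isoforms and single-gene subunits rose, and 0 of 5 tested tissue-restricted isoforms were called, a difference between the sets that was not tested. The share of all named genes was 27.7% higher and 19.7% lower. Of the ubiquitous ones all 10 had a positive change, with a median of 0.31, whereas after scaling to spike-ins none of the 5 was called. Cox7c, a small membrane subunit, lay at 6.19, 6.40 and 6.56 (lowest, median, highest) in metformin plus CCl4 mice and at 5.91, 5.94, 5.76 and 5.82 in CCl4 mice. Every metformin plus CCl4 mouse was higher, and the change was 0.53 ± 0.09 (SE), 1.45-fold (adjusted p = 0.00123, limma). Its 3 probes gave 0.53 to 0.89. Cox7a2, the ubiquitous form of a subunit that lies where complexes III and IV touch, lay at 6.23, 6.42 and 6.61 in metformin plus CCl4 mice, against 5.91, 5.76, 5.93 and 6.04 in CCl4 mice. The groups were apart, with a change of 0.50 ± 0.10 (adjusted p = 0.00208). Cox6c, a small subunit with no isoform partner among the members, lay at 7.20, 7.42 and 7.65 in metformin plus CCl4 mice and at 7.01, 6.93, 6.98 and 6.89 in CCl4 mice. Metformin plus CCl4 mice 1 and 2 were the closest to the CCl4 mice and mice 5 and 6 the farthest, and the change was 0.47 ± 0.11 (adjusted p = 0.00495).

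The supercomplex factor Cox7a2l was at 0.38 ± 0.10 (adjusted p = 0.0104), and its 3 probes gave 0.29 to 0.43. Members of complex IV that were not called include Cox5a and Cox5b, which sit close to the catalytic core, at 0.14 (interval -0.05 to 0.34) and 0.13 (interval -0.03 to 0.29). Cox7b and Cox6a1 had changes of 0.26 and 0.21 (adjusted p = 0.0721 and 0.0726), and Cox8a one of 0.16 (adjusted p = 0.265). Cox6a1, whose window above holds the NRF1, Sp1 and GABP letters, was called at 0.30 with another background correction (normexp, adjusted p = 0.00596). Cox7a2l and Cox4i1 were no longer called after quantile normalization (adjusted p = 0.0553 and 0.0751), nor Cox7a2l after median scaling (adjusted p = 0.0512). Spike-in scaling put Cox7c at 0.019, Cox7a2 at -0.015, Cox6c at -0.049 and Cox7a2l at -0.14, none of them called.

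Paralogs of complex IV subunits were set side by side because several subunits exist in a ubiquitous and a tissue-restricted form. Cox4i1, the general form of the largest nuclear subunit, lay at 8.15, 8.31 and 8.47 (lowest, median, highest) in metformin plus CCl4 mice, against 7.93, 8.09, 7.89 and 7.89 in CCl4 mice, a change of 0.35 ± 0.09 (adjusted p = 0.00911, limma). Cox4i2, the form known from lung and from low oxygen, lay at -0.93, -0.71 and -0.46 in metformin plus CCl4 mice and at -0.27, -0.33, -0.79 and -0.81 in CCl4 mice, a change of -0.18 (adjusted p = 0.325). Cox4i1 separated the groups and Cox4i2 did not.

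Cox6b1, the general form of a subunit on the cytochrome c side, lay at 4.45, 4.61 and 4.79 in metformin plus CCl4 mice and at 4.39, 4.11, 3.89 and 4.25 in CCl4 mice, a change of 0.45 ± 0.11 (adjusted p = 0.00713). Its testis form Cox6b2 lay at -2.34, -1.36 and -1.08 in metformin plus CCl4 mice and at -1.28, -1.56, -1.87 and -1.54 in CCl4 mice, a change of 0.056 (adjusted p = 0.867). Cox7a1, the heart and muscle form beside Cox7a2, lay at 1.05, 1.49 and 1.95 in metformin plus CCl4 mice, against 1.40, 1.23, 1.45 and 1.33 in CCl4 mice, a change of 0.14 (adjusted p = 0.501). In both restricted forms the CCl4 mice lay inside the range of the metformin plus CCl4 mice. Cox6a2 and Cox8b, the muscle forms of 2 further subunits, were dim and changed by -0.31 (interval -0.94 to 0.31) and 0.28 (interval -0.20 to 0.76), and Cox8b was above background on 3 of the 4 CCl4 arrays. Of 12 striated muscle markers 7 were not above background on any array, Acta1, Ckm and Mb among them, and 0 of the other 5 were called.

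The ratio of 2 paralogs within a mouse does not depend on how an array is scaled by one factor. It can depend on a difference between slides that varies with intensity, and Cox4i1 and Cox4i2 lie far apart in level. An exact permutation test of that ratio over mice was added after the values had been seen, on 8 pairs with Benjamini-Hochberg adjustment over them. The Cox4i1 to Cox4i2 ratio was higher by 0.54 on the log2 scale in metformin plus CCl4 mice, with all 6 above the 4 CCl4 mice (exact two-sided p = 0.00476, the smallest this design can give, adjusted exact p = 0.0381). With any 1 mouse left out the difference was between 0.43 and 0.60. No call is read from those 9 mice, because the smallest p that full separation can then give, adjusted over 8 pairs, misses the threshold unless other pairs share it. For Cox7a2 over Cox7a1 the difference was 0.36 (adjusted exact p = 0.0686), for Cox6a1 over Cox6a2 0.53 and for Cox6b1 over Cox6b2 0.40 (adjusted exact p = 0.126 for both), and for Cox8a over Cox8b -0.11 (adjusted exact p = 0.662). A p above the threshold does not show that a ratio was alike in the groups.

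**Figure D3:**
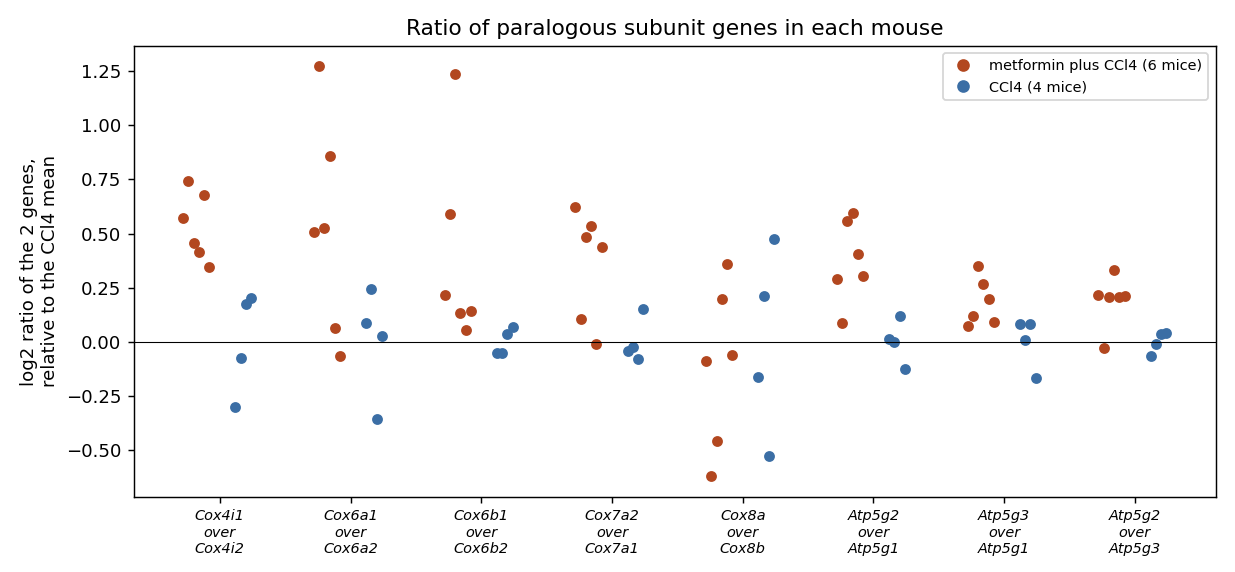
Log2 ratio of paralogous subunit genes in each mouse, relative to the CCl4 mean of the ratio (points are mice, 6 metformin plus CCl4 and 4 CCl4; the line at 0 is the CCl4 mean). For Cox4i1 over Cox4i2 the metformin plus CCl4 mice run from 0.34 to 0.74 and the CCl4 mice from -0.30 to 0.20; in the other 7 pairs the groups overlap.

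In complex V 9 of 17 members rose (52.9%) and 1 fell, beside 27.7% and 19.7% of all named genes. The counts by part of the complex given next are small. Of the 5 small membrane subunits 4 rose, of the 4 peripheral stalk subunits 2 rose, of the 3 genes of subunit c 2 rose, and of the 5 subunits of the F1 head and central stalk 1 rose and 1 fell, with all 9 that rose losing their call under spike-in scaling. Atp5j, coupling factor 6 of the peripheral stalk, lay at 6.10, 6.34 and 6.46 (lowest, median, highest) in metformin plus CCl4 mice, against 5.82, 5.80, 5.72 and 5.84 in CCl4 mice. All metformin plus CCl4 mice were higher, and the change was 0.50 ± 0.09 (SE), 1.41-fold (adjusted p = 0.00189, limma). Atp5h, subunit d of the same stalk, lay at 7.48, 7.66 and 7.83 in metformin plus CCl4 mice and at 7.32, 7.35, 7.25 and 7.20 in CCl4 mice. Its groups did not overlap either, and the change was 0.38 ± 0.09 (adjusted p = 0.00577), with 0.23 from its second probe. The other stalk members, Atp5o (the oligomycin sensitivity protein) and Atp5pb (subunit b), were at 0.19 (interval -0.0036 to 0.39) and 0.10 (interval -0.06 to 0.27) and were not called.

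Among the small membrane subunits, which help ATP synthases pair up in the inner membrane, Atp5j2 (subunit f) was at 0.43 (adjusted p = 0.00628), Atp5l (subunit g) at 0.43 (adjusted p = 0.00837), Atp5mpl at 0.32 (adjusted p = 0.019, and 0.0567 without CCl4 mouse 2) and Atp5md at 0.30 (adjusted p = 0.0147). In each of these 4 genes all metformin plus CCl4 mice were above all CCl4 mice. Atp5mpl lost its call with normexp and quantile normalization (adjusted p = 0.101 and 0.105), and Atp5md with median scaling and quantile normalization (adjusted p = 0.0667 and 0.0943). Atp5k (subunit e) was at 0.14 (interval -0.07 to 0.34) and was not called, and its second probe gave 0.31, with all metformin plus CCl4 mice above all CCl4 mice. The 5 probes of Atp5l gave 0.43 to 0.56.

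Subunit c, which forms the rotating ring, is made from 3 genes whose mature proteins are the same, so their ratio is one of gene use. Atp5g2 lay at 7.52, 7.75 and 7.80 in metformin plus CCl4 mice, against 7.25, 7.29, 7.28 and 7.24 in CCl4 mice, a change of 0.42 ± 0.09 (adjusted p = 0.00289, limma). The 4 CCl4 mice were within 0.1 of each other and below all 6 metformin plus CCl4 mice, and the second probe of the gene gave 0.23. Atp5g3 lay at 7.81, 8.04 and 8.09 in metformin plus CCl4 mice and at 7.82, 7.81, 7.74 and 7.69 in CCl4 mice, a change of 0.23 ± 0.08 (adjusted p = 0.0408). It overlapped in metformin plus CCl4 mouse 1, and in the 10 fits that each left out a mouse it was called once, without that mouse. Atp5g3 also lost its call with median scaling, quantile normalization and no filter on dim probes (adjusted p = 0.205, 0.677 and 0.0949). Atp5g1 lay at 7.60, 7.71 and 7.92 in metformin plus CCl4 mice, against 7.66, 7.72, 7.58 and 7.78 in CCl4 mice, a change of 0.046 (interval -0.16 to 0.25, adjusted p = 0.716). In the ratio test Atp5g2 over Atp5g1 differed by 0.37, Atp5g3 over Atp5g1 by 0.18 and Atp5g2 over Atp5g3 by 0.19, each with an adjusted exact p of 0.0686, which misses the threshold.

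The F1 head, where ATP is made, gave mixed values. Atp5d, the delta subunit of the central stalk, lay at 6.05, 6.17 and 6.26 (lowest, median, highest) in metformin plus CCl4 mice and at 6.33, 6.50, 6.29 and 6.42 in CCl4 mice. All 6 metformin plus CCl4 mice were lower, and it fell by 0.24 on the log2 scale (SE 0.08, adjusted p = 0.0348, limma). The call held in 3 of the 10 fits that left out a mouse; it was lost without metformin plus CCl4 mouse 1, 3, 4 or 6 and without CCl4 mouse 1, 2 or 4, at adjusted p of 0.0502 to 0.108. Atp5d also lost its call with normexp and with no filter on dim probes (adjusted p = 0.322 and 0.0836). Atp5c1, the gamma subunit of the central stalk, rose by 0.25 ± 0.08 (adjusted p = 0.0271), called in 6 of those 10 fits, and lost without metformin plus CCl4 mouse 5 or CCl4 mouse 1, 3 or 4. The call of Atp5c1 was also lost with normexp, median scaling, quantile normalization and no filter on dim probes (adjusted p = 0.101, 0.162, 0.261 and 0.0676), whereas its second probe gave 0.60. The catalytic beta subunit Atp5b was at -0.090 (interval -0.27 to 0.094), the alpha subunit Atp5a1 at 0.19 (interval 0.0071 to 0.38, adjusted p = 0.0839) and the epsilon subunit Atp5e at 0.088 (interval -0.11 to 0.28). Under spike-in scaling Atp5b, Atp5d, Atp5e and Atp5g1 were called lower, at -0.61, -0.75, -0.43 and -0.47.

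Levels differed among the mice of a group, and metformin plus CCl4 mouse 1 stood closest to the CCl4 mice. With the members of a complex averaged in each mouse and the CCl4 mean set to 0, complex IV was at 0.031, 0.13, 0.20, 0.17, 0.39 and 0.42 in metformin plus CCl4 mice 1 to 6, and at 0.063, -0.0023, 0.0027 and -0.064 in CCl4 mice 1 to 4. Mouse 1 was inside the CCl4 range for complex IV, and mice 5 and 6 were the highest. Metformin plus CCl4 mice 5 and 6 also had the highest means over all tested features, 0.1339 and 0.1272 with the CCl4 mean set to 0. Complex V was at 0.061, 0.20, 0.22, 0.18, 0.30 and 0.34 in metformin plus CCl4 mice 1 to 6, all above the CCl4 mice, which ran from -0.027 to 0.016. Complex III ran from 0.020 in mouse 1 to 0.33 in mouse 6, against -0.021 to 0.034 in CCl4 mice, and complex II from 0.042 in mouse 1 to 0.26 in mouse 2, against -0.073 to 0.046 in CCl4 mice. Of the 45 members, 30 had their lowest metformin plus CCl4 level in mouse 1, where 17.9% of all features had theirs, and 26 had their highest in mouse 6, against 23.9% of all features. The 75th percentile that was subtracted ran the other way, highest in mouse 1 (362.9) and lowest in mouse 6 (237.4) of the group. Its part in this order was not tested. The spread was wider in the metformin plus CCl4 group for 38 of the 45 members (84.4%), against 55.3% of all features. The median SD of members was 0.13 in metformin plus CCl4 mice and 0.066 in CCl4 mice, against 0.23 and 0.22 over all features. The metformin plus CCl4 arrays lay in 2 slide rows and the CCl4 arrays in 1, so the first spread includes any difference by row.

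**Figure D4:**
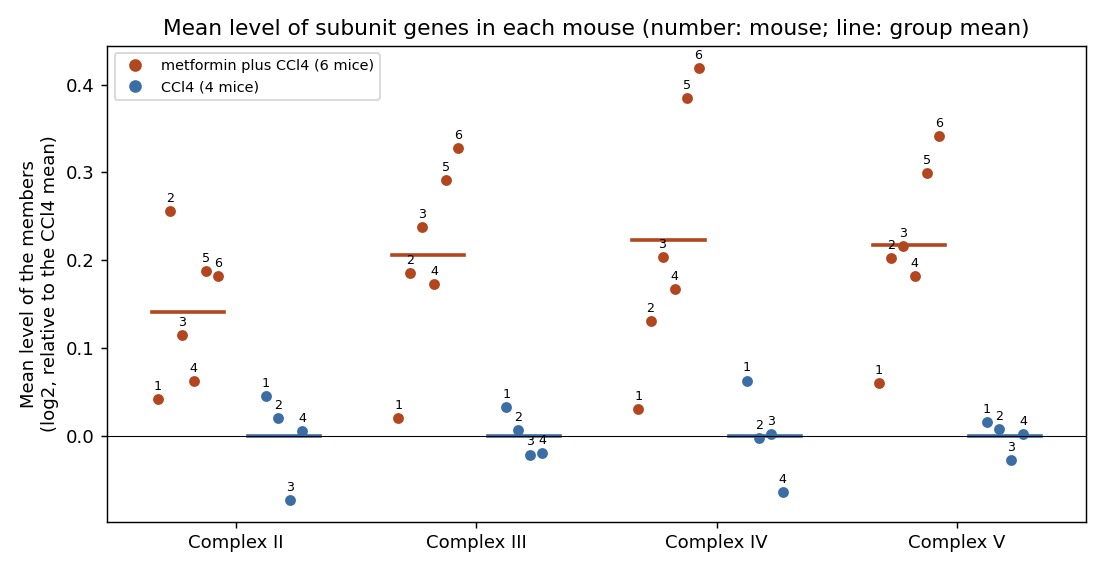
Mean log2 level of the tested members of each complex in each mouse, relative to the CCl4 mean (numbers are mice; lines are group means of 6 metformin plus CCl4 and 4 CCl4 mice). Metformin plus CCl4 mouse 1 is the lowest of its group in every complex, between 0.020 and 0.061, and mice 5 and 6 are the highest in complexes III, IV and V; the scale is the 75th-percentile one, under which members are higher, whereas with spike-in scaling 2 of the 45 changes are positive.

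Metformin plus CCl4 mice of the second slide row averaged higher than those of the first in complexes III, IV and V, but not in II. Complex IV averaged 0.29 in the 4 metformin plus CCl4 mice of the second slide row and 0.081 in the 2 of the first row. The second-row and first-row means were 0.26 and 0.13 for complex V, 0.26 and 0.10 for complex III, and 0.14 and 0.15 for complex II. With 2 mice in the first row, a difference by row cannot be told apart from a low mouse 1. First-row mouse 2 was above second-row mouse 4 in complex III (0.19 against 0.17) and complex V (0.20 against 0.18). In complex IV mouse 2, at 0.13, was below all second-row mice, the lowest of which was at 0.17. The mean over all tested features, on the same scale, also differed by row. It was 0.0294 and 0.0125 in metformin plus CCl4 mice 1 and 2, and 0.0451, 0.0902, 0.1339 and 0.1272 in mice 3 to 6. The row means of the complexes are not corrected for it. Within the first row, where 2 metformin plus CCl4 mice were set against the 4 CCl4 mice, 3 members were called higher, Sdhd at 0.46, Uqcrfs1 at 0.45 and Cox7c at 0.49, and Uqcrc1 was called lower at -0.50. In that comparison 16.3% of all named genes were called higher and 12.7% lower. With the row as a covariate 6 members were called higher, the same 3 with Cox7a2, Atp5j and Atp5g2, and Uqcrc1 lower, beside 19.9% and 14.1% of named genes. The part of slide position in the result was not tested further.

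Genes listed as assembly factors, most of which build the complexes but do not stay in them, were called higher in 22 of 35 tested (62.9%) and lower in 2 (5.71%) on the 75th-percentile scale, beside 27.7% and 19.7% of all named genes, and 1 of them stayed called under spike-in scaling. The list also holds Atpif1, Lrpprc, Slirp and Taco1, which are not assembly factors in this strict sense. All of these but Taco1 were called higher. All 4 factors of complex II rose, Sdhaf1, which helps insert iron-sulfur clusters, at 0.81 ± 0.11 (adjusted p = 0.00032, limma) and Sdhaf4 at 0.44 (adjusted p = 0.00183). For complex III 2 of 5 tested factors rose, Ttc19 at 0.53 and Uqcc3 at 0.33. For complex IV 13 of 20 rose and 2 fell, with a median of 0.37. Coa4, a small protein of the intermembrane space, had levels of 1.09 (lowest), 1.22 (median) and 1.36 (highest) in metformin plus CCl4 mice, against -0.85, -0.81, -0.75 and -0.05 in CCl4 mice. The groups were wide apart, with CCl4 mouse 4 above the other CCl4 mice, and the change was 1.84 ± 0.15, 3.59-fold (adjusted p = 2.98e-05). Coa6, which helps carry copper to complex IV, was at 0.92 ± 0.11 (adjusted p = 0.000156), whereas Cox10, which makes heme O on the way to heme A, and Sco2, which delivers copper, fell by 0.54 and 0.41 on the log2 scale (adjusted p = 0.0244 and 0.0358), with groups that overlapped. For complex V 3 of 6 were called higher, Fmc1 at 0.46, Tmem242 at 0.49 and Atpif1, the inhibitor of ATP hydrolysis, at 0.36 (adjusted p = 0.00385).

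Electron carriers and their makers were mixed, with 3 of 17 higher (17.6%, against 27.7% of all named genes), 5 lower and a median change of -0.18. Coq8a and Coq8b, kinase-like proteins needed for coenzyme Q synthesis, fell by 1.26 and 0.85 on the log2 scale (adjusted p = 6.65e-05 and 0.00175, limma), whereas Sqor, which feeds electrons from sulfide into coenzyme Q, was at 0.77 (adjusted p = 0.000206) and cytochrome c, Cycs, at 0.33 (adjusted p = 0.00542). Cyc1, the cytochrome c1 of complex III, was at -0.045 (adjusted p = 0.746), and Ndufa4 at 0.20 (adjusted p = 0.0717). Of 15 tested regulators of mitochondrial genes 5 rose (33.3%) and 2 fell, close to the 27.7% and 19.7% of all named genes. Esrra, the receptor ERR alpha, was at 1.05 ± 0.15 (adjusted p = 0.000341) and Tfb2m, a mitochondrial transcription factor, at 0.52 (adjusted p = 0.000961). Gabpb1, the partner of the DNA-binding GABP alpha, fell by 1.37 on the log2 scale (adjusted p = 4.3e-05), and Nrf1 by 0.47 (adjusted p = 0.0269). Ppargc1a, the coactivator PGC-1 alpha, was at -0.54 (interval -1.09 to 0.0015, adjusted p = 0.0952).

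Among 13 genes used as markers of mitochondrial mass 6 rose (46.2%, against 27.7% of all named genes) and 2 fell. The channel genes Vdac2 and Vdac1 were at 0.55 and 0.47, and Immt, which shapes the cristae, and the chaperone Hspa9 fell by 0.41 and 0.23 on the log2 scale. Citrate synthase, Cs, often taken as a measure of mitochondrial content, was at -0.001 (interval -0.18 to 0.18, adjusted p = 0.993). Of 36 complex I subunit genes 19 rose (52.8%, against 27.7% of all named genes) and 0 fell (against 19.7%), with a median of 0.25, Ndufa8 at 0.61 and Ndufb4 at 0.65 among them. Under spike-in scaling 0 complex I genes were called higher and 8 of 36 lower, with 44.2% of all named genes called lower.

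Counts of cell type markers called lower are read beside the 19.7% of all named genes called lower, and their part in the subunit values was not tested. The hepatocyte, macrophage and endothelial shares called lower, 33.3%, 33.3% and 28.6%, rest on few genes and are not read as a difference of cell types. The summed levels given below overlapped between the groups for every cell type but the erythroid one. All 12 hepatocyte markers were measured, which is what the label liver asks for, with 0 higher and 4 lower (Tat, Cps1, Apoa1 and Tdo2), and their summed level on the linear scale ran from 6968 to 8867 in metformin plus CCl4 mice and from 8186 to 10150 in CCl4 mice. Of the stellate cell and myofibroblast markers 6 of 9 tested were lower and Lox was not above background on any array, with sums of 10.48 to 18.53 in metformin plus CCl4 mice and 17.25 to 27.77 in CCl4 mice. Of the macrophage markers 3 of 9 were lower, with sums of 98.39 to 177.3 in metformin plus CCl4 mice and 134 to 169 in CCl4 mice. Of the endothelial markers 2 of 7 were lower, with sums of 44.86 to 76.88 in metformin plus CCl4 mice and 59.59 to 73.15 in CCl4 mice. Of the bile duct markers 3 of 6 were lower and Cftr was higher, with sums of 2.116 to 10.55 in metformin plus CCl4 mice and 6.329 to 13.07 in CCl4 mice. Krt7 was above background on 4 of the 6 metformin plus CCl4 arrays and Epcam on 1, against 4 and 3 of the 4 CCl4 arrays. Both passed the filter through the CCl4 group alone, so their lower calls are not read as a direction. Erythroid markers were lower in 2 of 3 tested genes, with sums of 35.99 to 47.6 in metformin plus CCl4 mice and 63.2 to 74.52 in CCl4 mice, and Epb42 was not above background. None of 6 tested lymphocyte markers was called, with sums of 26.17 to 49.16 in metformin plus CCl4 mice and 32.69 to 45.09 in CCl4 mice. Of the adipocyte markers 5 of 6 were not above background, and Cidea was lower.

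In the authors' deposited table of 4595 selected probes, 2 of the 70 member probes were present. Uqcrc1 differed there by -0.59 and one probe of Cox7c by 0.85 on the log2 scale, metformin plus CCl4 minus CCl4.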

How the data were processed

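RNA from 10 mouse livers was measured on Agilent 1-colour arrays, 6 metformin plus CCl4 and 4 CCl4, grouped by the sample titles. Per the file headers, Agilent Feature Extraction 10.7.3.1 made the deposited linear intensities; it subtracted background and detrended each array, with no normalization between arrays. The authors' deposited table gives quantile-normalized log2 values of 4595 selected probes, per its first line. The deposited flags mark spots well above background.

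Log2 of the processed intensity minus each array's 75th percentile was used. Of 55681 probes, 29575 passed the filter, which asked for a well-above-background flag on 75% or more of a group's arrays. Probe accessions were matched to RefSeq symbols (GRCm38.p6, for names, since the arrays' grid names mm9), which named 28664 probes. Each gene was represented by its brightest probe over all arrays. Of 16 members with several probes, 1 (Sdhc) had probes of opposite sign. Groups were compared over 22184 features with limma 3.58.1 (R 4.3.3, two-sided, Benjamini-Hochberg). Every adjusted p of a gene is limma's. On simulated data (22166 features) it found 67% of 100 genes moved by 1 (log2) and 18% of 100 moved by 0.5, and made 5 false calls. The simulated features were independent and few of them were changed, whereas in the mice 27.7% of named genes were called higher and 19.7% lower. Those rates therefore do not give the sensitivity or the false calls of this comparison.

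The members and lists were chosen with earlier results of these data known. Named with values per mouse were, in each complex, the 3 members called higher with the smallest adjusted p, each member called lower, and paralog pairs of which 1 was called; from other lists, up to 2 higher and 2 lower with the smallest adjusted p, and Atpif1, Ppargc1a and Cyc1. Cs, Ndufa4 and the cell type markers named were chosen after their values were seen. Alternatives covered background correction, scaling, filter, probe choice, slide row, replicate block and leaving out each mouse. Figures were drawn with matplotlib 3.10.9.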

Additional observations from a re-analysis of the deposited data

Results flagged for a closer look

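Of 90 groups of values examined (45 members in 2 groups), 3 held a mouse far from the others by Dixon's criterion, where chance alone gives about 1 in 20. Sdhc had a level of 5.14 in CCl4 mouse 3, below the other CCl4 mice, the nearest of which was at 5.31. Cox6a2 had a level of -2.92 in the same mouse, above the nearest at -3.44. Atp5l had a level of 6.85 in CCl4 mouse 1, above the nearest at 6.77 and still below the metformin plus CCl4 mice, whose lowest was 6.96.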

How the results depend on the processing

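Over 23 alternatives, 888 of 1034 values of single members kept their side of the threshold without reversing (50 of these changed sign while uncalled in both settings), 86 lost the call, 40 gained one and 20 reversed, all 20 under spike-in scaling. The count of members higher was 0 with spike-in scaling, 25 with normexp and 17 to 26 with 1 mouse left out. With metformin mice of row 2 alone it was 27. It was 6 with slide row as a covariate, 3 within slide row 1 and 5 with mouse numbers 1 to 4 as a replicate block. The numbers did not pair the mice (correlations of deviations -0.143, -0.124, 0.0854 and -0.0034). The count lower was 10 with spike-in scaling, 1 with normexp, with no filter, with the row covariate, within row 1 and with metformin mice of row 2 alone (an alternative chosen after seeing the data), and 1 to 2 with 1 mouse left out.

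Relative to all features, the median of complex II was -0.0909 after quantile normalization, against -0.0039. That of complex III, 0.14, was 0.27 with normexp, 0.039 with quantile normalization, 0.22 with probes of a gene averaged and 0.053 with the row covariate or within row 1. That of complex IV, 0.13, was 0.23 with normexp and 0.0575 with the row covariate or within row 1, and that of complex V, 0.13, was 0.031 with quantile normalization and 0.19 with no filter. With 1 mouse left out they ran from -0.040 to 0.020 (II), 0.12 to 0.19 (III), 0.078 (without CCl4 mouse 4) to 0.17 (IV) and 0.10 to 0.15 (V).

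Reversed with spike-in scaling were Sdhd (-0.10), Uqcrq (-0.10), Uqcrb (-0.10), Uqcrc2 (-0.47), Cox7a2 (-0.015), Cox6c (-0.049), Cox6b1 (-0.064), Cox7a2l (-0.14), Cox4i1 (-0.16), Atp5j (-0.017), Atp5j2 (-0.084), Atp5l (-0.087), Atp5g2 (-0.096), Atp5h (-0.13), Atp5mpl (-0.19), Atp5md (-0.21), Atp5c1 (-0.27), Atp5g3 (-0.29), Atp5e (-0.43) and Atp5g1 (-0.47). That scaling shifts every feature by the same amount, -0.52. The causes of the other differences were not tested. Cox4i1 over Cox4i2 lost its call after quantile normalization (0.39, adjusted exact p = 0.0635). Signal over background limits the dim isoforms Cox6a2 and Cox8b.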
